A study of Mus musculus with 6 samples.

Results

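Long intronic transcripts were the long noncoding RNA (lncRNA) intervals of mouse pancreatic islets that lay inside an intron of a protein-coding gene and spanned at least 1000 bases. They were chosen from coordinates alone: an interval had to lie wholly in a protein_coding gene of the GENCODE M21 annotation and to touch no annotated exon of any gene. Of the 3093 deposited transcripts, 617 met this rule, and they lay in 394 host genes. Each is named after the gene that covers most of it, so the name gives a location and the gene's messenger RNA was not measured. A further 1313 intronic transcripts met the same rule but spanned fewer than 1000 bases, and they serve as the closest comparison.

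The study compared islets, the clusters of hormone-secreting cells that hold the insulin-producing beta cells, from C57BL/6 mice on 2 diets. One group had 8 weeks of normal chow (NCD, 3 libraries). The other had 8 weeks of the high-fat diet that the labels abbreviate as HFD and spell "high-fed" (3 libraries). The labels give no age, sex, genotype or other treatment for either group, and the db/db mice named in the series title were not analysed here. The table holds 1 value per transcript and diet in FPKM, a fragment count scaled to the transcript's length and the library's mapped fragments. There is therefore no value per library, no standard deviation and no test between the diets, and every difference below is a difference between 2 deposited values. In islet RNA, fewer cells of a type and less RNA per cell cannot be told apart.

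Introns are the stretches of a gene that are transcribed and then removed from the precursor RNA by splicing. RNA read from within an intron can be precursor that has not yet been spliced or degraded, part of an exon that the annotation lacks, or an independent noncoding transcript. Very long introns are common in genes for adhesion molecules, ion channels and synaptic proteins, many of which neurons and the electrically excitable islet cells both use. The deposited table gives neither strand nor exon structure, so these sources cannot be told apart for a member. None of the 35 marker genes listed for beta, alpha, delta and PP cells and for acinar, duct, endothelial, stromal and immune cells hosts a long intronic transcript. The table itself has 1 transcript in a marker gene, one for duct cells, so the tissue label could not be checked against markers.

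A few members hold or border a RefSeq transcription start, and their sequences are shown because they are the only members for which the sequence tables used here give bases inside the interval. RefSeq promoter windows of 300 bases, 250 before and 50 after a start site on GRCm38.p6, overlapped 7 members in 9 places, and 7 start sites lay inside a member. The 4 windows below read in the direction of the model named first, with the 50 bases from its start site onwards in capitals.
Rap1gap2, its own alternative start beside a member of Rap1gap2 that ends before the capitals, chr11:74522752-74523051, minus strand: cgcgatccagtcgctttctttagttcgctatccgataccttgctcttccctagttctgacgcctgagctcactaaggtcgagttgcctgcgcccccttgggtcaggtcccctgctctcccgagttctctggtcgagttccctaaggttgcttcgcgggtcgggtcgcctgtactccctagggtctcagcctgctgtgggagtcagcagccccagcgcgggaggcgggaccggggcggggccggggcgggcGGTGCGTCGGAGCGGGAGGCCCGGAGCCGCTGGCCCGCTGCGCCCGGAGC
5930403L14Rik in a member of Prdm16, chr4:154636318-154636617, minus strand: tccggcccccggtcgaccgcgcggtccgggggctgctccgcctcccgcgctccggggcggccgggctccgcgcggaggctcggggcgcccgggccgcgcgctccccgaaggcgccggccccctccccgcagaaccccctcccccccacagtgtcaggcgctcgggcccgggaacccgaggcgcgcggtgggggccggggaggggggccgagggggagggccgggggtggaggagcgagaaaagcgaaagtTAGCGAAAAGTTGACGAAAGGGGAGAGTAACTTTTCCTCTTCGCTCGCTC
Gm46213 in a member of Map7, chr10:20174993-20175292, plus strand: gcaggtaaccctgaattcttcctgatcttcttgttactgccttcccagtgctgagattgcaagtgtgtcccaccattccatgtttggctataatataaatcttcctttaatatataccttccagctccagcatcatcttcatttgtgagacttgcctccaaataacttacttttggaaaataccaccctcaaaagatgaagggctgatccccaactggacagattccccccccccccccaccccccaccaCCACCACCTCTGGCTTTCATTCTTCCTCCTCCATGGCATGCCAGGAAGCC
Gm32059 in a member of Bicra, chr7:16045947-16046246, plus strand: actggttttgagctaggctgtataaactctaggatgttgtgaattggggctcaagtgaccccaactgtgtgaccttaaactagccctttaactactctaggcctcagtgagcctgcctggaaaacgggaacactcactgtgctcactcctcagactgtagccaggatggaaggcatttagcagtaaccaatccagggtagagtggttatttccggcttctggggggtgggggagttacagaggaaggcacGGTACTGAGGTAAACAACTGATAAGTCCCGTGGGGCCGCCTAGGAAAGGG
The first pair is rich in CG dinucleotides, with 30 in the Rap1gap2 window and 42 in the 5930403L14Rik window, against a median of 7 over the 32851 windows of the table. The Gm46213 window has 0 and the Gm32059 window 5. The letters TATAAA, searched on both strands, occur in 2 of the 9 windows (Gm46213 and Gm32059) and in 13.6% of all windows. None of the RefSeq microRNA entries lies inside a member (0 entries). Such matches describe the letters in the window and say nothing on whether a factor binds there.

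The 7 members that overlap such a window had diet ratios from -1.13 to 0.04. The diet ratio used throughout is log2 of (HFD + 0.1) over (NCD + 0.1), so -1 stands for a 2-fold lower level on the high-fat diet. The 1147-base member of Rap1gap2, a gene for a GTPase activator of the small G protein Rap, ends 15 bases before the host's own RefSeq start site. Its level was 3.28 FPKM in NCD and 1.77 in HFD, a ratio of -0.85. The member of Prdm16, a zinc-finger regulator known from brown fat, is covered for 81.7% of its 6947 bases by the RefSeq lncRNA 5930403L14Rik, which runs on the host's strand. It had 0.823 FPKM on chow and 0.451 in HFD (-0.74). The member of Map7, a gene for a microtubule-associated protein, had 5.32 FPKM on chow and 2.37 in HFD (-1.13). The 22314-base member of Zmiz1, a transcriptional coregulator gene, holds the starts of 3 RefSeq models, Gm32497, 4931406H21Rik and Gm45915, of which the first is on the opposite strand. It differed less between the diets, at 3.04 and 2.29 FPKM (-0.39).

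Long intronic transcripts were expressed at low, even levels and nearly all were lower on the high-fat diet. Their median level was 2.31 FPKM in NCD (0.329 to 12.8) and 1.25 FPKM in HFD (0 to 7.67). All 3093 transcripts had medians of 2.53 and 1.42 FPKM, so a low median level is not particular to the members. The members' median ratio was -0.83, which is 0.561 times the chow level, with quartiles of -1.19 and -0.52. A lower value in HFD was found in 566 members (91.7%), where 80.0% of all 3093 transcripts were lower. At least 2-fold lower levels were found in 228 members (37.0%), against 41.9% of all transcripts, and at least 2-fold higher levels in 6 members (0.972%), against 6.27% of all. Most members were thus lower by less than 2-fold, and few were past 2-fold in the higher direction. The median over all transcripts was -0.82, so relative to it the members were centred near 0: after subtracting that median, 27 were at least 2-fold lower and 35 at least 2-fold higher, in place of 228 and 6. Any ratio between -0.82 and 0 below changes sign on that scale, so it stands for a level that was lower as deposited but less so than in the typical transcript.

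**Figure D1:**
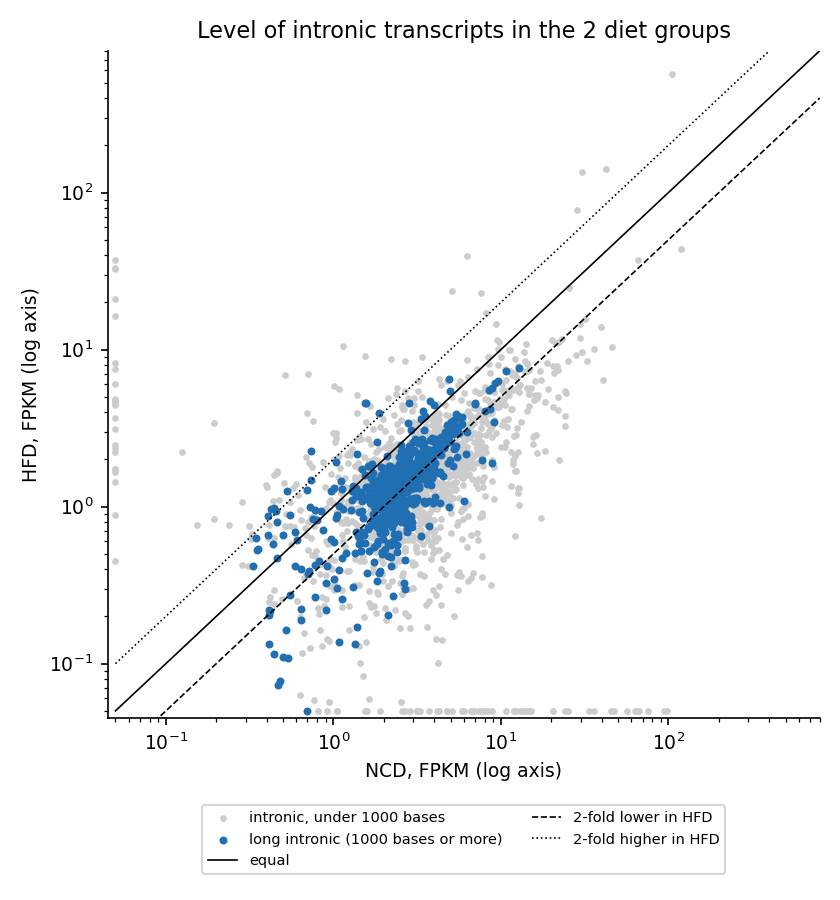
FPKM of each long intronic transcript (blue, 617) and each shorter intronic transcript (grey, 1313) in NCD (horizontal, log axis) and HFD (vertical, log axis), with lines for equal levels and for 2-fold differences without the added 0.1. Values of 0 are drawn at the lower end of the axis. The blue points form a compact band, mostly between the line of equal levels and the 2-fold lower line, while the grey points scatter widely.

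The shorter intronic transcripts had both higher chow levels and wider ratios. Their median was 3.41 FPKM in NCD and 1.52 in HFD, with a ratio of -1.13 and a standard deviation over transcripts of 1.82, against 0.62 over members. At least 2-fold lower levels were found in 733 of them (55.8%) and at least 2-fold higher levels in 74 (5.64%). The member median was 0.30 above the shorter median. In HFD, 56 of the shorter transcripts were listed at 0 and in NCD 23, but only 1 and 0 of the members were. A shorter transcript collects fewer fragments at the same FPKM: from the steps between low values, a member was estimated to rest on a median of 331 fragments in NCD and 221 in HFD, and, leaving out the member at 0 in HFD, on at least 20.4 and 4.98. Both estimates assume that a column comes from a single pool of fragments and that the transcript is unspliced.

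The median ratio moved with span across the 1000-base limit and not only at it. It was -1.18 from 200 to below 400 bases, -1.21 from 400 to below 600, -1.04 from 600 to below 1000 and -0.94 from 1000 to below 1500. Above that it went from -0.87 for 1500 to below 2000 bases to -0.78 for 3000 to below 5000 and -0.72 for 5000 to below 10000. The 73 members of 10000 bases or more had -0.76. The share at least 2-fold lower followed, from 46.0% in the first class of members (1000 to below 1500 bases) to 27.8% in the class starting at 5000. The standard deviation over transcripts was 2.67 from 200 to below 400 bases, 0.71 from 600 to below 1000 and between 0.49 and 0.68 in all 6 classes of members. At the limit, the 3 members just inside, in Pbx3 (1001 bases), Stxbp5l (1003) and Pde1c (1005), had ratios of -0.82, -1.76 and -0.40. The 3 transcripts just outside, in Tom1l1 (994), 5730480H06Rik (995) and Eif2ak4 (997), had -0.13, 0.15 and -1.19.

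**Figure D2:**
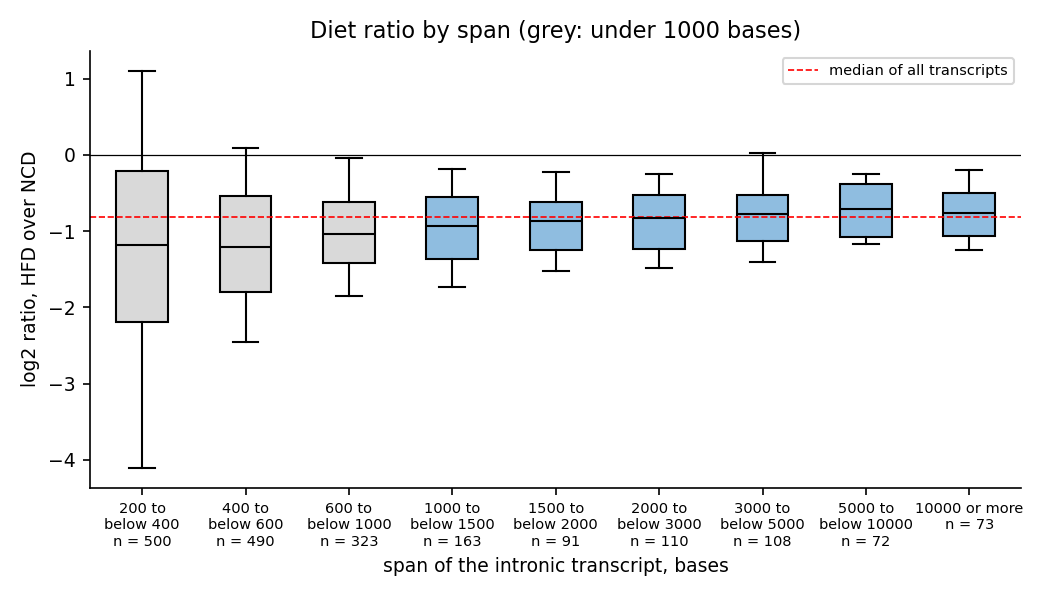
Log2 ratio of HFD over NCD (vertical axis) of all intronic transcripts by span in bases (horizontal axis); boxes show the quartiles and median, whiskers the 10th and 90th percentile over transcripts, grey boxes the shorter transcripts and the dashed line the median of all transcripts. The boxes narrow to the right and move up from medians of -1.18 and -1.21 in the leftmost classes to -0.72 in the class starting at 5000 bases.

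Members tended to lie in long introns, early in large genes. The intron holding a member had a median length of 85160 bases, against 37788 for the shorter transcripts, and the host gene a median of 227438 bases. A longer interval that touches no exon needs a longer intron, so the selection rule itself favours long introns. Its part in these differences was not tested. A member covered a median of 4.29% of its intron, and 34 covered more than 50%. Intron numbers were counted in the coding isoform with the longest coding sequence whose intron holds the transcript. By that count, 253 members lay in the first intron, 326 in a middle one and 30 in the last, and 8 lay in no intron of a coding isoform. The first intron thus held 41.5% of the 609 placed members and 32.9% of the placed shorter transcripts. Of the placed members, 446 (73.2%) were nearer the upstream exon than the downstream one, against 60.8% of the shorter transcripts. Position along the gene had a median of 28.9% from the start, with quartiles of 14.0% and 51.3%.

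The intron's rank in the gene went with little difference between the diets. Members in first introns had medians of 2.34 FPKM in NCD and 1.20 in HFD (ratio -0.84), with 103 of 253 (40.7%) at least 2-fold lower and 0 at least 2-fold higher. Members in middle introns had 2.32 and 1.26 FPKM (-0.85), with 113 of 326 (34.7%) at least 2-fold lower and 5 at least 2-fold higher. The 30 members in last introns, from 22 hosts, had 2.19 and 1.45 FPKM (-0.60), with 8 (26.7%) at least 2-fold lower and 1 at least 2-fold higher. First and middle introns were therefore alike in median, and the last introns stood above them on few transcripts, whose ratios ran from -2.03 to 1.51. After subtracting the median of all transcripts, the last-intron median was 0.22 and the others were -0.03. Nearness to the upstream or the downstream exon went with no difference in median (-0.82 and -0.84).

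The ratio also varied with the distance from an exon. The 125 members less than 1000 bases from the nearest annotated exon had medians of 2.51 FPKM in NCD and 1.56 in HFD (ratio -0.74), and 23.2% were at least 2-fold lower. From 1000 to below 5000 bases the ratio was -0.82 (199 members, 35.2%), and from 5000 to below 20000 it was -0.88 (169 members, 39.6%). The 124 members at 20000 bases or more had 2.14 FPKM on chow and 0.963 in HFD (-0.998), and 62 of them were at least 2-fold lower. The HFD level thus differed more between these classes than the NCD level did. Every deposited transcript reaches 0.410 FPKM in at least 1 group, so a member below that in HFD had to be lower there. The farthest class holds such members, as in Lrrc7 (0 FPKM) and Kcnq5 (0.077), and so does the nearest, as in Csrnp1 (0.203). Their part in the shares was not tested. Of the shares at least 2-fold lower, only that of the farthest class was above the 41.9% of all transcripts. With 1 member per host gene, the longest, the shares were 19.8%, 31.2%, 37.6% and 56.5%, so they do not rest on a few genes with many members. The shorter intronic transcripts ran in the same order, from 48.1% within 1000 bases to 66.4% at 20000 or more. Among members of 3000 bases or more the medians were -0.68, -0.79, -0.77 and -0.75, so beyond the nearest class the order is not seen in them, while members under 3000 bases went from -0.78 to -1.10. Distance, level and depth move together here: the 155 members with the lowest mean level had a median of -1.002 and the 154 with the highest -0.77, and their part in the result was not tested.

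**Figure D3:**
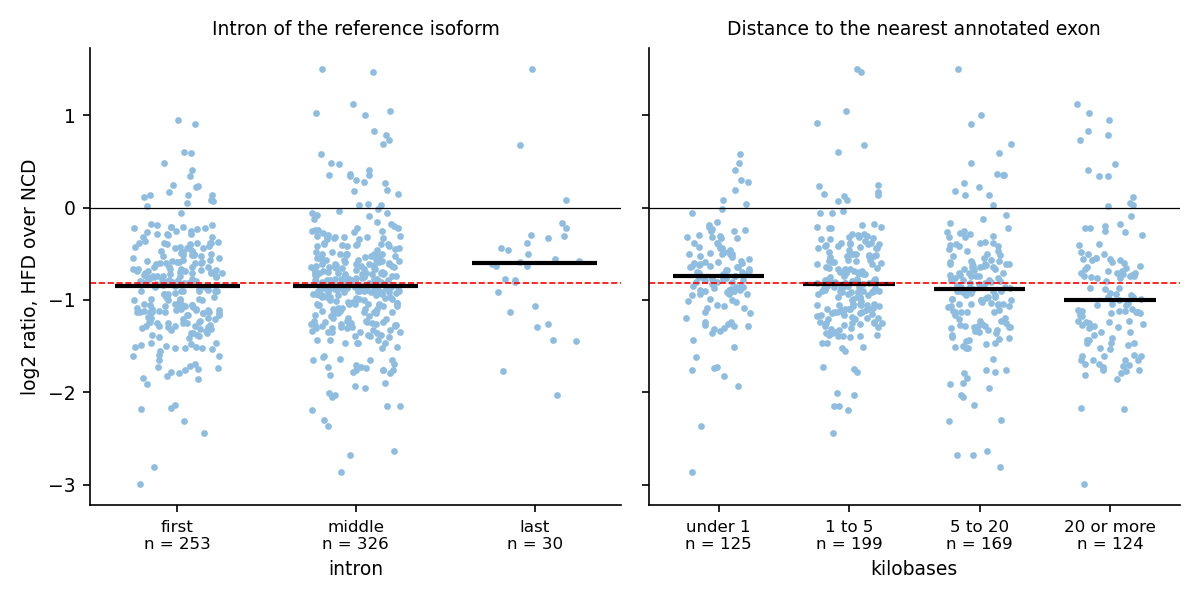
Log2 ratio of HFD over NCD (vertical axis) of each member by intron rank (left) and by distance to the nearest annotated exon in kilobases (right); points are transcripts, bars medians and the dashed line the median of all transcripts. First and middle introns have medians of -0.84 and -0.85, whereas the medians run from -0.74 near an exon to -0.998 in the farthest class.

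The most abundant members kept a sizeable level on both diets. The highest was a 5049-base member in the first intron of Fam155a, a gene for a partner of the sodium leak channel, at 12.8 FPKM on chow and 7.67 in HFD (-0.74). A member of Orc4, a subunit of the origin recognition complex that marks replication starts, had 10.7 and 7.25 FPKM (-0.56). A member of Sik3, a salt-inducible kinase, had 9.62 and 6.29 FPKM (-0.60). These 3 were lower in HFD by less than 2-fold, as were the abundant members of 2610301B20Rik (-0.58), Rbm25 (-0.64), Taf15 (-0.62) and Slc20a2 (-0.60). Rbm25 and Taf15 encode RNA-binding proteins and Slc20a2 a phosphate transporter. Another 2 of the 10 most abundant, in the ataxin gene Atxn1 (8.57 and 4.17 FPKM, -1.02) and in Zcchc7 (9.15 and 3.46 FPKM, -1.38), were past 2-fold.

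The longest member spanned 120729 bases of the first intron of Trpm3, a cation channel gene expressed in beta cells, at 5.05 FPKM on chow and 3.44 in HFD (-0.54). The next were 70767 bases in Nfia, a nuclear factor I transcription factor gene (2.56 and 1.49 FPKM, -0.74), and 62198 bases in Kcnip4 (3.54 and 3.75 FPKM, 0.08). Sgcz, which encodes zeta-sarcoglycan, held the remaining pair of the 5 longest, at 60532 and 51842 bases, with ratios of -1.16 and -1.20. Intervals of this length were therefore found on both sides of the members' median.

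The members with the lowest ratios had hosts with unrelated roles. The extreme was a 1593-base member in the first intron of Lrrc7, which encodes a synaptic scaffold protein (chr3:158515343-158516935). It was at 0.697 FPKM in NCD and was the only member listed at 0, in HFD, so no fold is given. Next came a member at chr9:119974454-119975891 that lies equally in introns of Csrnp1, a nuclear protein gene, and of the chemokine receptor gene Cx3cr1, at 2.11 FPKM on chow and 0.203 in HFD (-2.87). It begins 40 bases from an annotated exon. Members of Arhgap26, a GTPase activator gene (2.69 and 0.300 FPKM, -2.80), of the zinc-finger repressor gene Zbtb16 (2.26 and 0.268 FPKM, -2.68) and of the microtubule-binding navigator gene Nav3 (2.64 and 0.328 FPKM, -2.68) followed. Below -2 was also a member of Pcsk6, a proprotein convertase gene (1.35 and 0.133 FPKM, -2.64). These members of Lrrc7, Csrnp1, Arhgap26, Zbtb16, Nav3 and Pcsk6 were all below 0.410 FPKM in HFD. Every deposited transcript reaches that level in at least 1 group, so their lower direction was fixed by the table. A member of Ccar1, a regulator of the cell cycle and apoptosis, stood at a high 6.03 FPKM on chow and at 1.09 in HFD (-2.36). A member of Rasgef1b, a Ras exchange factor gene, had 4.90 and 0.997 FPKM (-2.19). For members under 2000 bases a 95% counting interval on the ratio could be estimated, for counting error only and on the assumption of 1 pool. It is on the ratio without the added 0.1 and so is not centred on the printed ratio; it was -4.07 to -2.68 for Csrnp1 and -2.57 to -2.02 for Rasgef1b.

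Only 6 members were at least 2-fold higher in HFD. A 34091-base member in intron 2 of 14 of Gli3, a zinc-finger factor of the Hedgehog pathway, had 1.55 FPKM on chow and 4.58 in HFD (1.51). A member in the last intron, 38 of 38, of Uggt2, a gene of glycoprotein folding in the endoplasmic reticulum, had 0.730 and 2.26 FPKM (1.51), with a counting interval of 1.24 to 2.02. A member of Nrros, a gene known from macrophages and microglia, had 1.57 and 4.54 FPKM (1.47). No immune marker gene of the list has a transcript in the table (0 transcripts), so the immune share could not be compared. The other 3 were in Fam19a1, with 2 members, and in Inpp4b, with 1. Just under 2-fold with the added 0.1 were members of Cacna1c (0.442 and 0.983 FPKM, 1.00 after rounding), Kcnip4 (0.408 and 0.877 FPKM, 0.94), Ptges (0.737 and 1.48 FPKM, 0.91) and Pafah1b1 (0.452 and 0.935 FPKM, 0.91). With 0.01 added in place of 0.1, 9 members were at least 2-fold higher. The hosts just named encode an L-type calcium channel subunit, a potassium channel partner, a prostaglandin E synthase and the dynein regulator LIS1.

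A floor in the table bears on members at low levels. Every deposited transcript reaches 0.410 FPKM in at least 1 group, so a member below that level on chow had to be higher in HFD, and one below it in HFD had to be lower there. The former holds for 6 members, 4 of them in Inpp4b, and the latter for 36. Of the 51 members with a higher HFD value, 45 were at or above the floor on chow. Over the 253 members under 2000 bases with a counting interval, 213 intervals lay below 0, 6 above 0, and 34 held 0. Set against the table's median ratio without the added 0.1, which was -0.86, 80 lay below it, 65 above it and 108 held it. The intervals hold counting error only, on the assumption of 1 pool, and no spread between the 3 libraries of a group. The tally is therefore no test of the diets, and 80.0% of all transcripts were lower in HFD. Members whose direction was fixed by the floor are among those counted.

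Members of a host gene resembled each other. There were 288 hosts with 1 member, 62 with 2 and 44 with at least 3, which together held 205 members. In 33 of these 44 hosts all members were lower in HFD, and in 3 (Inpp4b, Fam19a1 and Pde4d) most were higher. As 91.7% of all members and 80.0% of all transcripts were lower, the count of 33 alone does not show resemblance within a host. The standard deviation over members within a host had a median of 0.35, against 0.70 over the 205 members. Consecutive members of the same host differed in ratio by a median of 0.31 (223 pairs), and consecutive members of different hosts by 0.51 (374 pairs). The 17 pairs in different hosts less than 200000 bases apart differed by 0.45. Their median gap was 125480 bases, against 21234 for pairs in the same host, so spacing and host could not be separated. Over the 163 hosts that also hold shorter intronic transcripts, the host medians of members and of shorter transcripts had a Pearson r of 0.29 and a Spearman coefficient of 0.42. In the 20 hosts with at least 3 members and at least 3 shorter intronic transcripts, r was 0.66 and the Spearman coefficient 0.54, and r was 0.44 without Inpp4b. These points share the libraries behind the columns and are given as a description. Fragments of 1 precursor RNA and separate transcripts cannot be told apart without strand or exon structure.

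**Figure D4:**
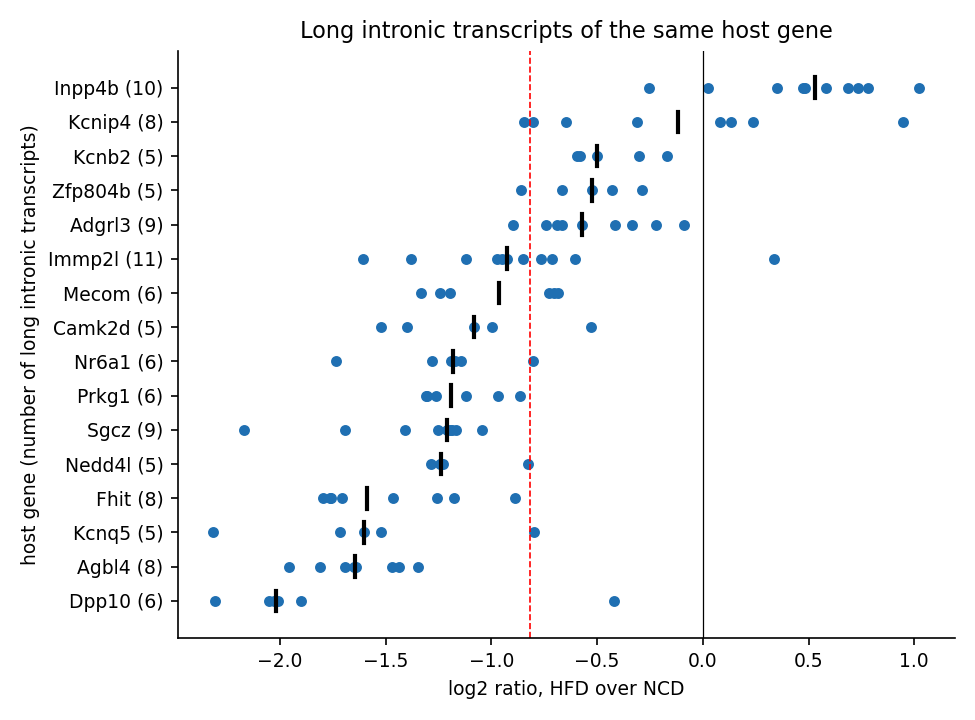
Log2 ratio of HFD over NCD (horizontal axis) of each member in the 16 host genes with at least 5 members (vertical axis, number of members in parentheses); points are transcripts, black ticks host medians and the dashed line the median of all transcripts. Host medians run from -2.02 in Dpp10 to 0.53 in Inpp4b.

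Several hosts with low median ratios were large genes, but a long intron did not by itself go with a low ratio. The 152 members in introns of 218273 bases or more had a median of -0.80. Of these, 37.5% were at least 2-fold lower and 21 were higher in HFD. The 153 members in introns of at most 24050 bases had -0.78, with 30.1% at least 2-fold lower and 8 higher. Among other large hosts, Dlg2 (1972576 bases) had a median of -0.79 and Pard3b (1003461 bases) -0.71. All 8 members of Agbl4, which encodes a carboxypeptidase that trims glutamate chains from tubulin, were at least 2-fold lower, with ratios of -1.95 to -1.34. Their levels were 2.25 to 4.36 FPKM in NCD and 0.746 to 1.05 in HFD, without overlap, although they lay in introns 3 and 6 and spread over 708497 bases. Such a lack of overlap was common: it held in 26 of the 44 hosts with at least 3 members. Fhit, a tumour suppressor gene at a common fragile site, had 8 members with a median of -1.59, of which 7 were at least 2-fold lower. Its exception at -0.89 was the member farthest from the gene's start, at 902 kilobases. All 9 members of Sgcz were at least 2-fold lower (-2.17 to -1.04), at 1.42 to 4.01 FPKM in NCD and 0.580 to 1.69 in HFD. Dpp10, which encodes a partner of Kv4 potassium channels, had 5 of 6 members between -2.30 and -1.90 and 1 at -0.42. On chow the 5 had 1.87 to 2.66 FPKM and the 6th 0.590, whereas in HFD all 6 were at 0.376 to 0.572. Kcnq5, a potassium channel gene, had 5 members at 0.482 to 1.08 FPKM in NCD and 0.077 to 0.275 in HFD (median -1.60). The 3 members of the receptor phosphatase gene Ptprd had a median of -1.61, and the 3 of Lrrc7, all in its first intron, -1.72. All 5 members of Kcnq5 and all 3 of Lrrc7 were below the table's floor in HFD, so they had to be lower there. The same holds for the Dpp10 members at 0.376 and 0.388 FPKM in HFD and for the Ptprd member at 0.338.

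The other hosts with many members had medians on both sides of that of all transcripts. Of the 41 hosts with at least 3 members and a median below 0, 16 had one above 0 after centring or quantile normalization, among them Adgrl3, Kcnb2, Zfp804b and Kcnip4. Immp2l, a gene for a mitochondrial inner membrane peptidase, had the most members, 11, all in its intron 4. They had 0.971 to 3.91 FPKM in NCD and 0.681 to 2.01 in HFD, with a median ratio of -0.93, and 1 of the 11 was higher in HFD (0.971 and 1.25 FPKM, 0.34). All 9 members of the adhesion receptor gene Adgrl3 were lower by less than 2-fold (-0.90 to -0.09). So were all 5 members of Kcnb2, the gene of a Kv2 potassium channel (-0.59 to -0.17), and all 5 of the zinc-finger gene Zfp804b (-0.86 to -0.29). Mecom, a zinc-finger transcription factor gene, had 6 members at low levels, 0.415 to 1.01 FPKM in NCD and 0.163 to 0.391 in HFD (median -0.96). All 6 were below the table's floor in HFD, so their lower direction was fixed by the table. Prkg1, the gene of a cGMP-dependent protein kinase, had 6 members at -1.31 to -0.87 in 2 introns. Nr6a1, an orphan nuclear receptor gene, had 6 members with a median of -1.18, of which 4 lie over the RefSeq lncRNA Nr6a1os.

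Inpp4b, which encodes a phosphatase of the phosphoinositide PI(3,4)P2, stood on the other side. Of its 10 members, 9 were higher in HFD, and the median ratio was 0.53 (-0.26 to 1.02). The levels were low on both diets, 0.343 to 0.863 FPKM in NCD and 0.472 to 1.27 in HFD, and the ranges overlapped. The members lay in introns 1 and 2, between 6.97 and 203 kilobases from the start of the gene. Its 4 shorter intronic transcripts had a median of 1.27. Since 4 of the 10 members were below the table's floor on chow, their direction was fixed by the table, and the other 6 gave 5 higher and 1 lower. The 3 members of Fam19a1, a gene for a secreted chemokine-like protein, were all higher (1.87 and 3.96 FPKM, 1.03 and 1.92 FPKM, 0.526 and 1.26 FPKM) with ratios of 1.04, 0.83 and 1.12, and all were above the floor on chow. Pde4d, a cAMP phosphodiesterase gene, had members at 0.12 and 0.14 in its first intron and at -0.69 in intron 5.

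Within Kcnip4, which encodes a calcium-binding partner of Kv4 channels, the ratio differed along a single intron. The 4 members centred 274 to 420 kilobases from the gene's start had higher HFD values, with 4.94 and 5.42 FPKM, 3.54 and 3.75, 0.408 and 0.877, and 3.42 and 4.05 in NCD and HFD. Their ratios were 0.13, 0.08, 0.94 and 0.24. The 4 members centred 572 to 706 kilobases from the start had lower HFD values, with 2.83 and 1.58 FPKM, 5.84 and 3.70, 3.38 and 2.70, and 3.28 and 1.78. Their ratios were -0.80, -0.65, -0.31 and -0.84. All 8 lie in the first intron of the reference isoform, and the groups of 4 do not overlap in ratio or in position. They do not overlap in span either: the former span 16906 to 62198 bases and the latter 1067 to 3940. This split was chosen after the values were seen, and whether position, span or an internal start goes with it was not tested. Leaving out the 16906-base member, which is below the floor on chow and lies within the 62198-base one, leaves 3 members at 0.08 to 0.24.

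**Figure D5:**
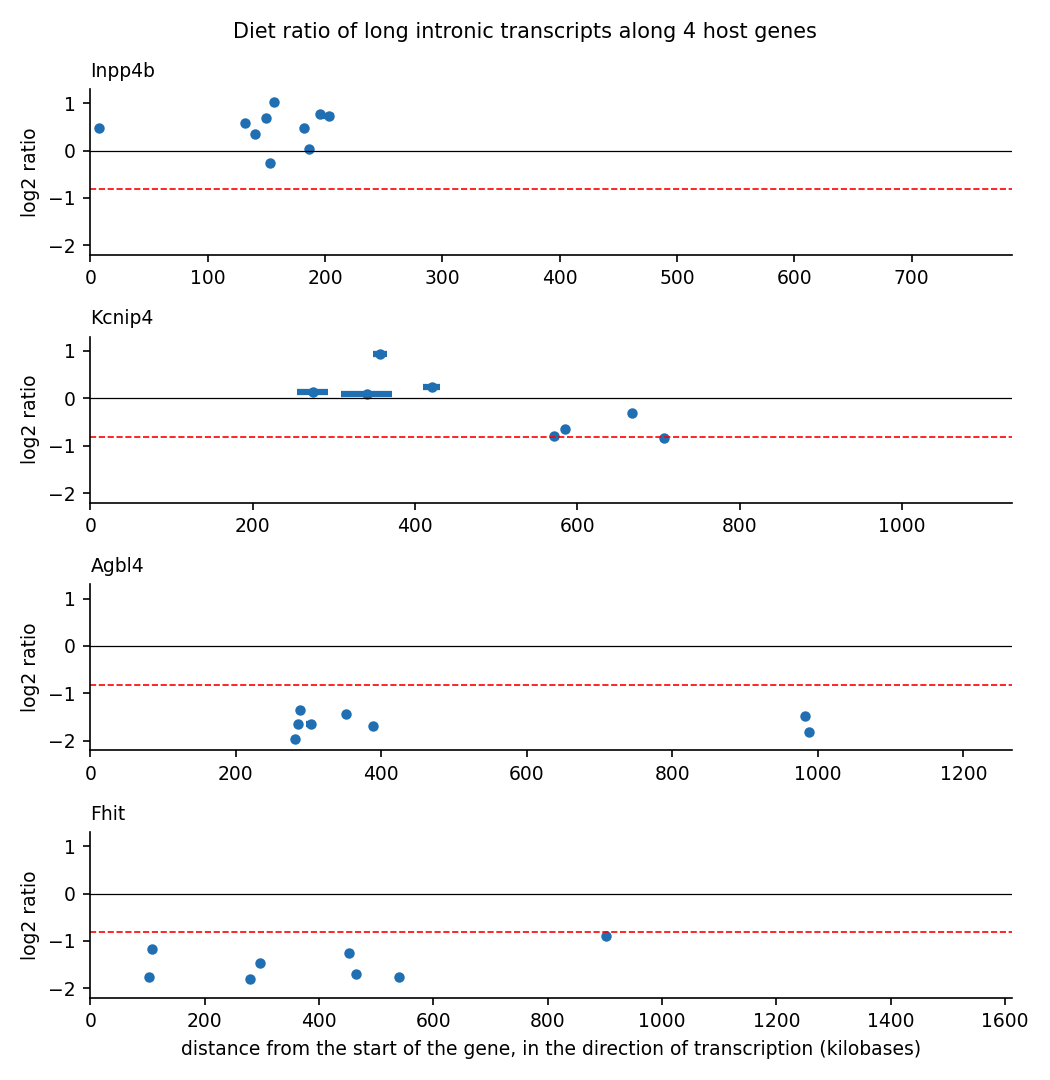
Log2 ratio of HFD over NCD (vertical axes) of each member along Inpp4b, Kcnip4, Agbl4 and Fhit (horizontal axes, kilobases from the start of the gene); points mark the centre, bars the span, and the dashed line the median of all transcripts. In Kcnip4 the 4 members at 274 to 420 kilobases lie above 0 and the 4 at 572 to 706 below, while all 8 members of Agbl4 lie between -1.95 and -1.34.

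Grouped by the function of the host gene, most lists lay close to the members as a whole. The lists were patterns on gene symbols, a gene may be in several, and a few were caught by name only (Camkmt among the kinases, Tmem164 among the channels, Ccdc58 in the cytoskeleton list). They held 332 members with a median of -0.83, and the 285 members in no list had -0.85. The counts by list stand beside 80.0% of all transcripts lower, 41.9% at least 2-fold lower and 6.27% at least 2-fold higher. After centring or quantile normalization, 5 of the 15 lists with a median below 0 had one above 0: vesicle traffic, ion channels, membrane transporters, adhesion and ubiquitin. Members named from here on beyond the most abundant of each list were chosen after their values were seen.

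Kinase and phosphatase genes were on the lower side throughout. The protein kinase and phosphatase list had 36 members in 20 hosts, with medians of 2.30 FPKM in NCD and 1.04 in HFD and a median ratio of -1.09. All 36 were lower in HFD, as were 91.7% of the members and 80.0% of all transcripts. At least 2-fold lower levels were found in 19 (52.8%), against 37.0% of the members and 41.9% of all transcripts. The ratios ran from -2.44 to -0.09, so some were above the -0.82 of all transcripts. The median over host genes was -1.14, so the value does not rest on hosts with many members. They included Dusp10, a phosphatase of stress-activated MAP kinases (8.81 and 1.91 FPKM, -2.15), the calcium/calmodulin kinase gene Camk2d (5 members, median -1.08) and Sik3 (-0.60 and -0.68). The small GTPase regulator list had 11 members, all lower (median -0.85), such as Arhgap6 (3.49 and 2.00 FPKM, -0.77) and Dennd1a (3.19 and 2.54 FPKM, -0.32).

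The cAMP and G protein list had 15 members in 9 hosts, 12 lower and 3 higher, with a median of -0.86. The phosphodiesterase gene Pde3b, whose product degrades cAMP in beta cells, had a 48376-base member at 5.21 FPKM on chow and 2.32 in HFD (-1.13). Gnas, the gene of the stimulatory G protein subunit, had one at 3.00 and 1.61 FPKM (-0.86). Rapgef4, the gene of the cAMP sensor Epac2, had one at 2.10 and 2.08 FPKM (-0.01), so the list did not move as one. The phosphoinositide list had 11 members, of which 10 are those of Inpp4b, and the other, in the kinase subunit gene Pik3ca, had 3.16 and 1.94 FPKM (-0.68).

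The ion channel and vesicle traffic lists had medians above that of the members. The ion channel list had 29 members in 10 hosts with a median of -0.58, 24 lower and 5 higher, and 8 (27.6%) at least 2-fold lower, against 41.9% of all transcripts. The 5 higher ones were the 4 of Kcnip4 and 1 of Cacna1c, and 4 of the 8 were in Kcnq5. The list's median over host genes was -0.68. Its symbol pattern missed channel partners such as Dpp10 (6 members, median -2.02, 5 at least 2-fold lower). It also missed Fam155a (3 members, median -0.61, 0 at least 2-fold lower), so its values hold for the listed symbols only. Cacna2d1, a calcium channel accessory subunit gene, had its stronger member at 6.28 and 2.97 FPKM (-1.06). The vesicle traffic list had 8 members, each in its own host, with a median of -0.58. It included Syt14 at 3.79 and 1.97 FPKM (-0.91) and Syt16 at 4.87 and 6.51 FPKM (0.41), both genes of the synaptotagmin family, and the syntaxin genes Stx8 (-0.55) and Stx18 (-0.27). The beta cell list had 2 members, both in Tcf7l2, a Wnt pathway transcription factor gene linked to type 2 diabetes: 2.03 and 1.17 FPKM (-0.75) and 2.54 and 1.24 FPKM (-0.97). The lists for other endocrine cells, for acinar and duct cells and for endothelial, stromal and immune cells had 0 members.

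Structural genes differed by list. The cytoskeleton and cilia list had 30 members in 14 hosts with a median of -1.23, and 20 (66.7%) were at least 2-fold lower, against 41.9% of all transcripts, but 8 of them are those of Agbl4 and the median over host genes was -1.08. Its other low members included the 3 of Pdlim5, a gene of an actin-associated protein (-1.76 to -1.15), and among its most abundant was Ift46, a gene of ciliary transport (5.14 and 3.07 FPKM, -0.72). The adhesion and matrix list had 39 members in 16 hosts with a median of -0.69, 38 lower and 10 (25.6%) at least 2-fold lower, below the share over all transcripts. The list of giant genes at common fragile sites had 38 members in 10 hosts with a median of -0.96, 36 lower and 16 (42.1%) at least 2-fold lower, a share close to the 41.9% of all transcripts.

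Nuclear, turnover, metabolic and transporter genes had list medians from -1.27 to -0.56. The transcription factor and chromatin list was the largest, with 80 members in 55 hosts and a median of -0.84. Of these, 75 were lower, as were 91.7% of the members and 80.0% of all transcripts. At least 2-fold lower levels were found in 27 (33.8%), below the 41.9% of all transcripts. At least 2-fold higher was 1, in Gli3, where 6.27% of all transcripts were. The same shares apply to the counts of the lists that follow. All 11 members of the RNA binding list were lower (median -0.90), with Rbfox2, a splicing regulator gene, at 3.87 and 2.72 FPKM (-0.49). The ubiquitin list had 22 members (-0.74), with Ube2e2, a conjugating enzyme gene, at 4.70 and 2.72 FPKM (-0.77). The cell cycle and DNA repair list had 16 members, all lower, with a median of -1.27, of which 8 are in Fhit; the median over its 8 hosts was -0.98. The lipid and mitochondrial list had 20 members (-0.85), 11 of them in Immp2l, with Lpcat3, a phospholipid-remodelling enzyme gene, at 6.22 and 2.17 FPKM (-1.48). The membrane transporter list had 10 members with a median of -0.56, 8 lower and 2 higher.

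A minority of members lay over another gene model. RefSeq lncRNA models other than the host overlapped 32 members in 24 hosts, with medians of 2.43 FPKM in NCD and 1.29 in HFD and a ratio of -0.75, and 12 (37.5%) were at least 2-fold lower. The 585 other members had a median of -0.85, and 36.9% were at least 2-fold lower, so an overlapping model went with no marked difference. The lowest of the 32 was a member of Nrg1, the neuregulin gene, which lies wholly in Gm39155 (2.76 and 0.690 FPKM, -1.86). The 3 members of Cacna1c all lie over Gm50599. Their values were 0.442 and 0.983 FPKM, 1.62 and 1.12, and 1.42 and 0.930, with ratios of 1.00, -0.50 and -0.56. Another 30 members lie in more than 1 GENCODE gene, with a median of -0.77 against -0.84 for the 587 in a single gene.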

How the data were processed

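The authors deposited 1 table of transcript intervals and 2 FPKM columns, 1 for each diet, per the file headers; the way the 3 libraries of a group were combined, the aligner, the assembler and the quantifier were not given in the sources used here. Per the labels' protocols, islet RNA was extracted with Trizol and made into Illumina TruSeq RNA libraries. The submitters' processing notes name the builds GRCm38 and mm10. Intervals were placed on GENCODE M21 with Python 3.11.15 and pandas 2.3.3. The members and lists were chosen with earlier results of these data known. Planned tests, left-out libraries and the replicate block need values per library, and a size rule of 2-fold stands in for them; planned sequence features were not run because no genome sequence was used here. A pseudocount of 0.1 was added and no filter applied. Named members were the 10 highest and 10 lowest ratios above 0 in both groups, the 10 most abundant, the 5 longest, the 2 most abundant per list, members at 0, those at the span limit and those in hosts with at least 3. A few of these are not reported here. Depth was estimated from transcripts of 400 to 800 bases, a range chosen after the values were seen: 87.5% of 48 NCD and 100.0% of 120 HFD values below 8 fragments were within 0.15 of a whole fragment (30% by chance), with totals of 65200000 and 79700000 fragments. The totals were fitted on these same transcripts, so this agreement is no independent check of the depth. The 30% holds for a scale set beforehand and not for a fitted one. Scripts were tested on simulated data. Alternatives covered pseudocount, scaling, filters, span, hosts and the exon set.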

Additional observations from a re-analysis of the deposited data

How the results depend on the processing

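The values given here, in order, are the members' median ratio, then that in first, middle and last introns. A pseudocount of 0.01 gave -0.89, -0.91, -0.89 and -0.64, with 247 members at least 2-fold lower and 9 higher, and one of 1 gave -0.55, -0.55, -0.56 and -0.39, with 51 members at least 2-fold lower and 2 higher. Subtracting the median of all transcripts gave -0.0159, -0.0251, -0.0325 and 0.22, with 27 at least 2-fold lower, 35 higher and 316 lower by any amount, and quantile normalization gave -0.0160, -0.0178, -0.0227 and 0.21, with 27, 36 and 321. The last-intron median thus changed sign under both scalings. At least 1 FPKM in either group gave -0.86, -0.86, -0.86 and -0.59. A span minimum of 2000 bases gave -0.77, -0.82, -0.74 and -0.61, with 118, 3 and 331 members. One member per host gave -0.80, -0.83, -0.79 and -0.59, with 129 at least 2-fold lower and 367 lower. Counts fall under these last settings since fewer members enter. Settings chosen after seeing the data were members at or above the table's floor in both groups (-0.82, -0.81 first, -0.59 last) and leaving out Inpp4b (-0.85, -0.85 first, -0.86 middle). The difference from the shorter transcripts, 0.30, was 0.24 with a pseudocount of 1, 0.28 with quantile normalization, without transcripts at 0 and without Inpp4b, 0.36 from 2000 bases, 0.31 with 1 per host and 0.23 above the floor. With exons of the basic annotation only, 632 transcripts met the rule, and 607 when every covering gene had to be protein-coding. For the 247 named members, 0 of 1639 values recomputed without another scaling changed sign. That result was fixed in advance, because a pseudocount or a choice of members cannot alter which of the 2 values is higher. The 2 scalings turned 83 members, 0 of them past 2-fold as deposited. Subtracting the median of -0.82 cannot turn a ratio of -1 or lower, so for that scaling the 0 was also fixed in advance. For changes other than those of the number of members, the cause was not tested. No paired analysis was possible because the columns hold 1 value per group. Leaving out libraries could not be run either.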

Other observations

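By chromosome, the members' median ratio ran from -1.03 on the X chromosome (18 members) and -1.01 on chromosome 4 (42 members) to -0.58 on chromosome 16 (13 members) and -0.59 on chromosome 5 (53 members). Chromosome 5 holds Kcnip4 and Adgrl3, and chromosome 4 holds Agbl4. Chromosomes share host genes with several members, so these medians are a description of where the members lie.

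A pair of members each is held by 5 loci of the table. In Rfx7, the gene of a winged-helix transcription factor, 1 of the pair was slightly higher in HFD (0.844 and 0.940 FPKM) and the other lower (1.60 and 0.722 FPKM). In Cacna1c the pair was likewise on opposite sides, at 0.442 and 0.983 FPKM and at 1.62 and 1.12 FPKM. How fragments were assigned between overlapping isoforms was not given in the sources used here, and the ratios of such pairs were not tested against each other.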
